A study of Mus musculus with 18 samples.

Results

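The BCL2 family of survival and death genes was measured in mouse CD8 T cells, the lymphocytes that kill infected cells, on 18 Affymetrix arrays. The members were taken by name: every probe set whose annotation gave Bcl2, Bcl2l1, Mcl1, Bcl2l11, Bax, Bak1, Bad, Bid, Bbc3 or Pmaip1 as its single gene symbol. This gave 29 probe sets of 9 genes, of 45037 probe sets and 18193 genes in all. Bax had no probe set under that rule and was not analysed here. A probe set was tested when it lay above 4.06 (log2), the 40th percentile of all values, on at least 2 arrays. Of the 29 probe sets 25 were tested, of 29843 tested in all. The 4 that were not tested are 3 probe sets of Bcl2l1 and 1 of Bak1, all above that value on 0 arrays.

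All cells carried the F5 T cell receptor transgene on a C57Bl/6 background and were sorted from spleen by flow cytometry. Memory cells, called TIM in the labels, came from F5 mice immunised with the NP68 peptide on more than 1 occasion and were taken on day 45. They were cultured for 20 hours with both IL-4 and IL-7, with IL-4, with IL-7 or in medium alone (2 arrays each), or measured ex vivo (4 arrays). Naive cells were cultured for the same time with both cytokines or with IL-7 alone, or measured ex vivo (2 arrays each). IL-4 was used at 20 ng/mL and IL-7 at 10 ng/mL. The design has no naive cells in medium or in IL-4 alone. Cultured cells came from 2 sorted memory populations and 2 sorted naive populations, each bearing a single transgenic receptor. The arrays thus sample few populations of 1 specificity. Arrays of different cultured groups can share a population, but the main fit treated all arrays as independent. A fit with the replicate number as a block is given at the end.

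Proteins of this family decide whether the outer mitochondrial membrane is breached and the cell dies. BCL2, BCL-XL (Bcl2l1) and MCL1 hold the pore-forming effectors BAX and BAK (Bak1) in check, while BH3-only proteins such as BIM (Bcl2l11), PUMA (Bbc3), NOXA (Pmaip1), BID and BAD neutralise the guardians or activate the effectors. In resting T cells IL-7 is a known survival cytokine that acts through STAT5 and keeps BCL2 high, and IL-4, whose receptor shares the common gamma chain, acts mainly through STAT6.

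Promoter sequence of 8 of the 9 genes was at hand (RefSeq, GRCm38.p6), as 14 windows of the 250 bases before a listed start. The Bcl2 window is printed because the results turn on that gene, and its capitals mark TGACG, the core word of the cyclic AMP response element, which occurred in 17.8% of 32851 mouse windows of that length on either strand. Bcl2l11 and Bbc3 are known targets of FOXO factors, which cytokine signalling restrains, and their capitals mark the FOXO word GTAAACA or its reverse complement TGTTTAC.
Bcl2, chr1:106714291-106714540, minus strand: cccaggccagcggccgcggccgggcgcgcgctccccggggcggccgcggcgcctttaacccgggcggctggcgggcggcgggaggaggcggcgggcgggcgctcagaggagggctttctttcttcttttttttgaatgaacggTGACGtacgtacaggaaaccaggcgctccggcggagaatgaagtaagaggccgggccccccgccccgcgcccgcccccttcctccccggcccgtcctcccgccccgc
Bcl2l11, chr2:128125788-128126037, plus strand: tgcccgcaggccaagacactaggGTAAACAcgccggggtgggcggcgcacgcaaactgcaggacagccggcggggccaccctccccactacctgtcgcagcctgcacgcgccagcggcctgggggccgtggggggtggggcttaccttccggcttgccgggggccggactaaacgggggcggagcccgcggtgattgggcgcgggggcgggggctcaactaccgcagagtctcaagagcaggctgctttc
Bbc3, chr7:16310083-16310112, plus strand: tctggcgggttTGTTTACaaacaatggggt
The FOXO word was found in 2 of the 14 windows, those of these 2 genes, and in 3.17% of all windows. The STAT5 type word TTCNNNGAA and the STAT6 type word, which has 1 more free base between TTC and GAA, both palindromes, were each found in 0 of the 14, against 7.02% and 5.85% of all windows. The GC box GGGCGG, searched on both strands, was found in 9 of the 14 windows and in 32.7% of all. A window of this length holds a small part of what can regulate a gene.

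Array medians lay between 4.62 and 4.76 (log2), and Cd8a, Cd8b1 and 3 Cd3 genes were high on all 18 arrays. The array labelled memory in medium, replicate 2, stood apart. It correlated best with memory ex vivo array 2 (r = 0.9914 over the probe sets tested), whereas its r with medium array 1 was 0.9511. The calls and counts that rest on medium are therefore given with and without it. The difference between 3′ and 5′ Gapdh control probe sets is a sign of RNA integrity and labelling. It was 2.67 to 3.36 (log2) on the other cultured arrays, 2.35 on that one and 2.07 to 2.69 on ex vivo arrays. That of Actb was 1.63 to 2.25, 1.87 and 1.95 to 2.07 in the same order. The part of either in the culture results was not tested. Of the markers of red cell precursors, Alas2 lay at 6.84 to 11.50 on memory arrays and 4.15 to 6.15 on naive arrays, while Hba-a1 was above the filter value on 0 arrays. The B cell gene Cd79a reached at most 5.53 and Ms4a1 at most 5.27, both on memory ex vivo arrays, and Cd79b lay between 7.25 and 8.79 throughout.

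Bcl2, the guardian that IL-7 is known to keep high, varied most across the study, and its 5 probe sets did not tell the same story everywhere. In naive cells all 5 were high after culture and low ex vivo. In memory cells all 5 were high with IL-4, with or without IL-7. With IL-7 alone, 2 of them were as high as with IL-4 and 3 were not. A value on these arrays is an average over the sorted cells, so fewer cells with the transcript and less transcript per cell cannot be told apart.

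The brightest Bcl2 probe set, 1457687_at, had log2 values of 11.56 and 11.43 in memory cells with both cytokines, 11.90 and 11.43 with IL-4, 11.20 and 9.72 with IL-7, 9.53 and 9.72 in medium, and 10.07, 9.45, 10.14 and 9.73 ex vivo. In naive cells it had 11.58 and 11.26 with both cytokines, 11.56 and 11.25 with IL-7, and 9.26 and 8.72 ex vivo. The 4 memory arrays with IL-4 and the 4 cultured naive arrays overlapped at the top, and the 2 memory IL-7 arrays lay far apart from each other, array 1 close to that top and array 2 among the medium and ex vivo arrays. Probe set 1437122_at had 10.90 and 10.71 with both cytokines, 10.47 and 10.53 with IL-4, 9.60 and 8.32 with IL-7, 7.95 and 7.91 in medium, and 8.39, 8.11, 8.83 and 8.39 in memory cells ex vivo. Its naive values were 10.84 and 9.88 with both cytokines, 10.45 and 10.21 with IL-7, and 7.59 and 7.25 ex vivo. All 4 memory arrays with IL-4 lay above both memory IL-7 arrays for this probe set. The dimmest, 1422938_at, ran the same way over a narrower range, with 8.37 and 8.66 in memory cells with both cytokines, 8.66 and 8.52 with IL-4, 7.78 and 6.87 with IL-7, and 6.66 and 7.60 in medium.

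Probe set 1443837_x_at behaved differently in memory cells with IL-7 alone. It had 12.02 and 11.80 with both cytokines, 12.05 and 11.62 with IL-4, 12.34 and 10.95 with IL-7, 9.27 and 7.52 in medium, and 8.27, 7.81, 7.74 and 7.18 ex vivo. Here the IL-7 arrays spanned the range of the IL-4 arrays and lay above medium. Probe set 1440770_at had 10.88 and 9.06 with both cytokines, 10.50 and 10.01 with IL-4, 11.92 and 10.16 with IL-7, 8.47 and 6.98 in medium, and 6.68, 6.37, 7.32 and 6.52 ex vivo. Its highest value of all 18 arrays was memory IL-7 array 1. In naive cells these 2 probe sets ran from 9.80 to 11.64 after culture and from 6.21 to 7.67 ex vivo, with no overlap. By the array maker's naming, the suffix x marks a probe set whose probes may also match other transcripts.

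The pairing of these probe sets was noticed in the data and is described without a test. The mean of 1443837_x_at and 1440770_at minus the mean of the other 3 was 2.60 and 2.25 (log2) in memory cells with IL-7, and no other array exceeded 1.17. It was 1.17 and 0.16 in memory cells with both cytokines, 0.93 and 0.66 with IL-4, 0.82 and -1.15 in medium, and between -1.51 and -1.19 ex vivo. In naive cells it was 0.92 and 0.77 with both cytokines, 0.90 and 0.98 with IL-7, and -0.74 and -0.93 ex vivo. Over the 18 arrays the 5 probe sets correlated with one another at Pearson's r between 0.621 and 0.977, with the lowest value between 1440770_at and 1422938_at. Cultured and ex vivo arrays were pooled in these correlations. Which Bcl2 transcripts each probe set detects was not analysed here.

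**Figure D1:**
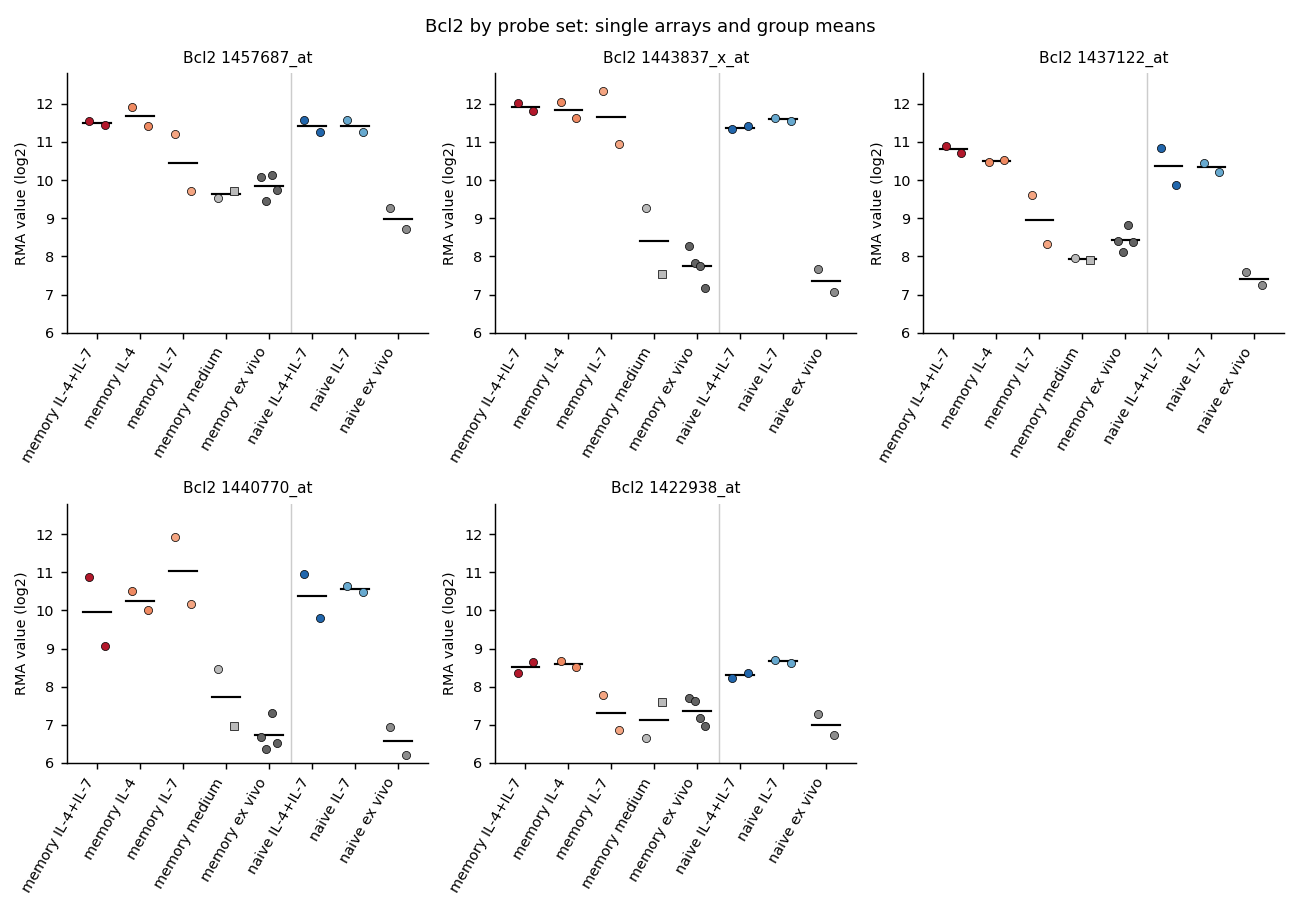
RMA values (log2) of the 5 Bcl2 probe sets on each array, by group. Points are single arrays, black lines group means, and the square is the medium array that resembled an ex vivo array. In memory cells with IL-7, 1443837_x_at and 1440770_at lie with the IL-4 groups, while the other 3 probe sets have lower means than those groups.

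The question of the design was what IL-4 changes. Bcl2 and Bak1 were the family members that rose with IL-4 in memory cells kept with IL-7. Bcl2 1437122_at was 3.59-fold higher with both cytokines than with IL-7 (log2 difference 1.84, SE 0.37, limma adjusted p = 0.0238), and no IL-7 array reached the arrays with both. Bak1 1418991_at was 1.79-fold higher (0.84, SE 0.16, adjusted p = 0.0162). These are 2 of 25 member probe sets called, at an adjusted p under 0.05, against 1.60% of all probe sets tested. The median difference over the 25 was 0.29, with 19 of them above 0, and over all probe sets it was 0.04. Probe sets of 1 gene share a transcript, so these counts are not of independent genes. Of the other Bcl2 probe sets, 1422938_at differed by 1.19 (adjusted p = 0.113), 1457687_at by 1.04 (adjusted p = 0.212), 1443837_x_at by 0.27 and 1440770_at by -1.07, and the last 2 overlapped between groups. The Bcl2 call was lost without either array with both cytokines (adjusted p = 0.0736 and 0.129) or without IL-7 array 2 (adjusted p = 0.214). It was also lost when those 4 arrays alone were fitted (adjusted p = 0.0876).

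Without IL-7, IL-4 was set against medium, and 3 Bcl2 probe sets rose. Probe set 1443837_x_at was 10.86-fold higher (3.44, SE 0.51, limma adjusted p = 0.00374), 1437122_at was 5.95-fold higher (2.57, SE 0.37, adjusted p = 0.00301) and 1457687_at was 4.12-fold higher (2.04, SE 0.38, adjusted p = 0.0171). The remaining 2 Bcl2 probe sets differed by 2.53 (1440770_at, adjusted p = 0.0973) and 1.46 (1422938_at, adjusted p = 0.062) and did not pass. The 3 calls among 25 stand against 1.15% of all probe sets. Without medium array 2, 4 member probe sets passed against 0.952% of all: 1437122_at (2.55, adjusted p = 0.0181), 1443837_x_at (2.57, adjusted p = 0.0224), 1422938_at (1.93, adjusted p = 0.0246) and Mcl1 1416881_at (1.11, adjusted p = 0.0143), while 1457687_at did not (2.14, adjusted p = 0.0529). Without medium array 1 the difference was 3.27 for 1440770_at and 1.39 for Bid 1417045_at. Leaving out IL-4 array 1 ended the calls of 1443837_x_at (adjusted p = 0.0699) and 1457687_at (adjusted p = 0.196), leaving out IL-4 array 2 that of 1457687_at (adjusted p = 0.0702), and with only these 4 arrays in the fit 0 members passed.

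Averaged over both settings, IL-4 raised 6 of the 25 member probe sets in memory cells, against 5.27% of all. These were Bcl2 1437122_at (2.21, SE 0.26, limma adjusted p = 0.000212), 1443837_x_at (1.85, SE 0.36, adjusted p = 0.00906), 1457687_at (1.54, SE 0.27, adjusted p = 0.00438) and 1422938_at (1.33, SE 0.24, adjusted p = 0.00636), Bak1 1418991_at (0.53, SE 0.11, adjusted p = 0.0134) and Mcl1 1416881_at (0.63, SE 0.17, adjusted p = 0.0451). The fifth Bcl2 probe set, 1440770_at, did not pass (0.73, adjusted p = 0.427). Again 6 passed without medium array 2, against 4.9% of all, and 8 passed without medium array 1, against 13.8%.

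In naive cells kept with IL-7, IL-4 changed 0 of 25 member probe sets by limma. An unadjusted p under 0.05 was seen for 1 of them (4%, against 7.68% of all). Of all probe sets 0.680% were called. The share of all lay between 0.194% without naive IL-7 array 1 and 3.35% without naive array 2 in both cytokines, with 0 members called in each. The 5 Bcl2 differences lay between -0.36 and 0.03. For 1437122_at the 95% interval of the difference ran from -0.76 to 0.82, and for 1457687_at from -0.80 to 0.83, and the memory differences were 1.84 and 1.04. Without memory IL-7 array 2 the memory difference of 1457687_at was 0.30, inside its naive interval. For 1457687_at the 4 cultured naive arrays lay between 11.25 and 11.58, and the 4 memory arrays with IL-4 between 11.43 and 11.90. Tested directly, the IL-4 response of memory minus naive cells, both with IL-7, passed for 0 members, against 0.0268% of all. By limma 6 members had an unadjusted p under 0.05 (24%, against 9.45% of all). The largest such differences were 1.82 for Bcl2 1437122_at (95% interval 0.69 to 2.94, adjusted p = 0.408), 1.55 for 1422938_at (adjusted p = 0.441) and 1.43 for Bcl2l11 1426334_a_at (95% interval 0.02 to 2.84). It was 1.02 for Bcl2 1457687_at (95% interval -0.13 to 2.18) and 0.89 for Bak1 (adjusted p = 0.368).

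**Figure D2:**
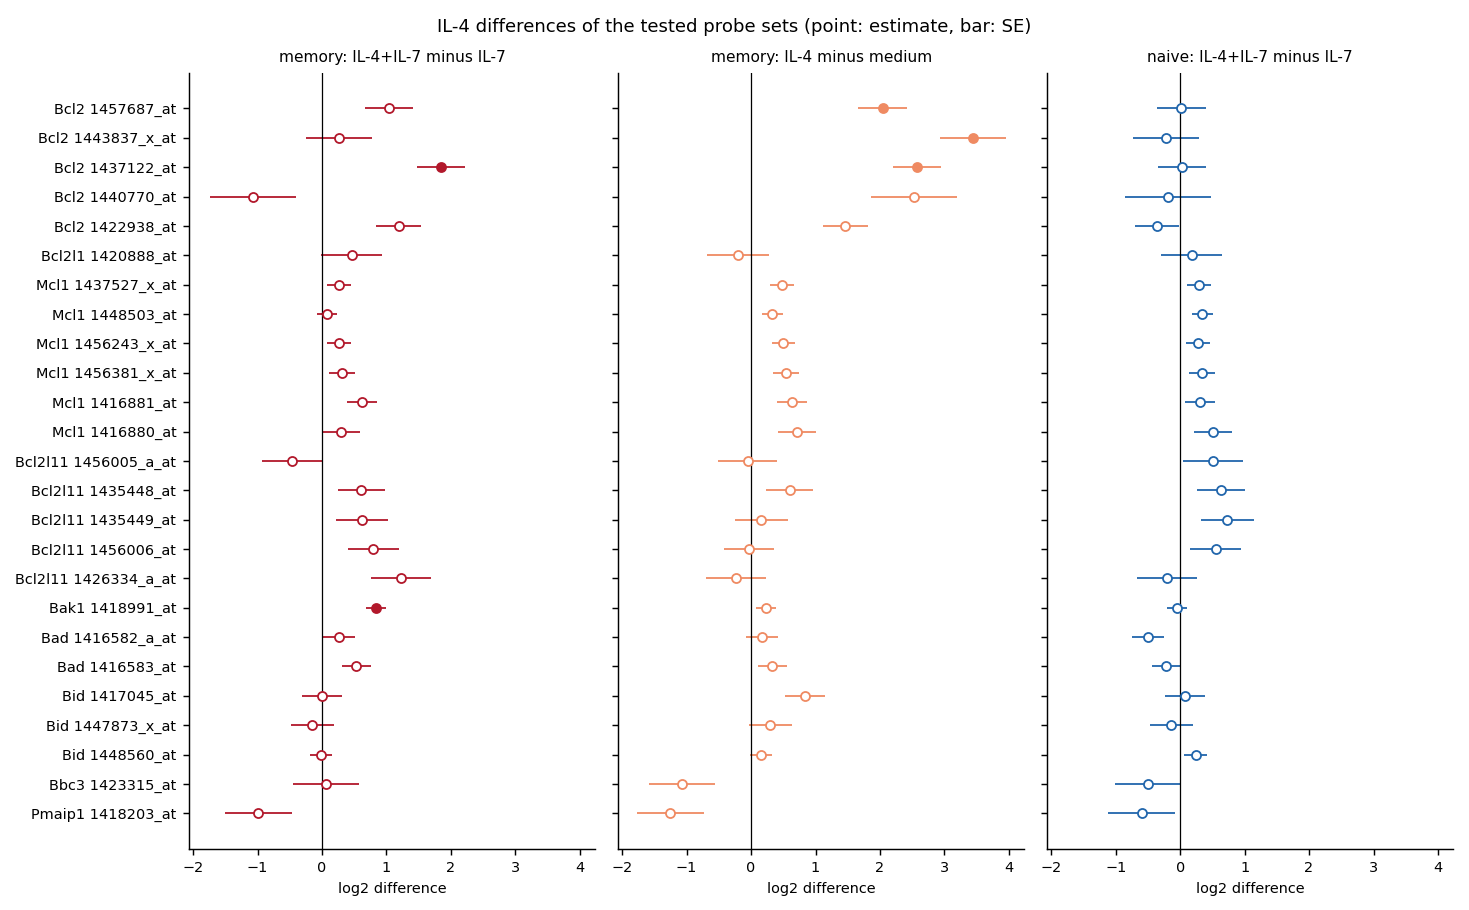
Log2 differences with IL-4 against without it, for the 25 tested probe sets, for memory cells kept with IL-7 (left), memory cells without IL-7 (middle) and naive cells kept with IL-7 (right). Bars are standard errors and filled points passed an adjusted p under 0.05: Bcl2 1437122_at and Bak1 on the left, 3 Bcl2 probe sets in the middle and none on the right.

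IL-7 alone was set against medium in memory cells. By limma 0 of 25 member probe sets passed, as did 0 of all 29843 (0%), although 1896 probe sets and 5 members had an unadjusted p under 0.05. The largest member differences were those of the Bcl2 pair described above. They were 3.31 for 1440770_at (95% interval 1.88 to 4.74, adjusted p = 0.732) and 3.25 for 1443837_x_at (95% interval 2.15 to 4.35, adjusted p = 0.291). The other 3 Bcl2 probe sets differed by 1.03, 0.84 and 0.19. The result turned on the medium arrays. When medium array 2 was left out, 0 members and 0 of all passed, 274 having an unadjusted p under 0.05, and the differences were 2.57 for 1440770_at and 2.38 for 1443837_x_at. Without medium array 1, 3975 of all passed (13.3%) and 5 members, among them 1443837_x_at (4.12, adjusted p = 0.000208), 1440770_at (4.06, adjusted p = 0.00334) and Bcl2l11 1426334_a_at (-2.12, adjusted p = 0.00542).

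Added to IL-4, IL-7 changed 0 of 25 members and 0% of all probe sets by limma, with 1 member and 548 of all at an unadjusted p under 0.05. That member was Bak1, 0.47 higher with both cytokines (95% interval 0.14 to 0.81, adjusted p = 1). The difference between the IL-4 responses with and without IL-7 was largest for the same Bcl2 pair, -3.60 for 1440770_at (95% interval -5.62 to -1.58) and -3.17 for 1443837_x_at (95% interval -4.73 to -1.62), both at an adjusted p = 0.881. It passed for 0 members and 0% of all, with 4 members and 1364 of all at an unadjusted p under 0.05. Without medium array 1, 4 members and 6.92% of all passed, and without medium array 2, 0 of each, with -2.86 for 1440770_at and -2.30 for 1443837_x_at.

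Culture itself was compared in cells kept with IL-7 against the ex vivo cells. In naive cells all 5 Bcl2 probe sets rose. The rise was 18.74-fold for 1443837_x_at (4.23, SE 0.51, limma adjusted p = 0.0015), 15.84-fold for 1440770_at (3.99, SE 0.67, adjusted p = 0.00567), 7.54-fold for 1437122_at (2.91, SE 0.37, adjusted p = 0.00204), 5.35-fold for 1457687_at (2.42, SE 0.38, adjusted p = 0.00446) and 3.16-fold for 1422938_at (1.66, SE 0.35, adjusted p = 0.0129). These 5 of 25 stand against 9.40% of all probe sets, a share of 0.483% without naive IL-7 array 2 and 1.53% without naive ex vivo array 2, where 3 members passed in each case. Probe sets 1440770_at and 1422938_at missed the threshold without naive ex vivo array 2 (adjusted p = 0.0514 and 0.107) and without naive IL-7 array 2 (adjusted p = 0.0534 and 0.0888), and 1422938_at also without naive IL-7 array 1 (adjusted p = 0.0715). Without medium array 2, which enters this result through the shared estimate of spread, 8 members passed, against 16.4% of all.

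In memory cells kept with IL-7, only 2 Bcl2 probe sets passed, 1440770_at, 19.89-fold higher (4.31, SE 0.58, limma adjusted p = 0.00284), and 1443837_x_at, 14.86-fold higher (3.89, SE 0.44, adjusted p = 0.00284). These 2 of 25 stand against 18.9% of all. That share rested on both IL-7 arrays: it was 0.925% without array 1 and 1.43% without array 2, where 2 and 3 members passed. The other 3 differed by 0.61 (1457687_at), 0.53 (1437122_at) and -0.05 (1422938_at) and overlapped between cultured and ex vivo arrays. Without medium array 2, 5 members passed, against 24.9% of all: the same 2, Mcl1 1416881_at (-0.59, adjusted p = 0.00666), Bcl2l11 1426334_a_at (-1.12, adjusted p = 0.0151) and Bbc3 (-1.29, adjusted p = 0.0323). The Gapdh 3′ minus 5′ difference was 3.36 and 2.91 on the memory IL-7 arrays and 2.07 to 2.62 on the memory ex vivo arrays. It was 3.05 and 2.67 on the naive IL-7 arrays against 2.69 and 2.56 on the naive ex vivo arrays. The Actb difference was 2.25 and 1.86 on the memory IL-7 arrays and 1.96 to 2.07 on the memory ex vivo arrays. On naive arrays Actb had 1.64 and 1.63 with IL-7 and 1.95 and 2.06 ex vivo. The part of either was not tested.

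The difference between the culture responses of memory and naive cells was tested as well. It was -2.39 for Bcl2 1437122_at (95% interval -3.44 to -1.34, limma adjusted p = 0.118), -1.81 for 1457687_at (adjusted p = 0.223) and -1.71 for 1422938_at (adjusted p = 0.204). For 1443837_x_at and 1440770_at it was -0.33 and 0.33. It passed for 0 members, against 0.0235% of all. By limma 4 members had an unadjusted p under 0.05 (16%, against 10.9% of all). In memory cells kept in medium against ex vivo, 0 of 25 members and 0% of all passed by limma, with 0 members and 3010 of all at an unadjusted p under 0.05. Once medium array 2 was left out, 3849 of all (12.9%) and 2 members passed, Bcl2 1443837_x_at (1.52, adjusted p = 0.0388) and Mcl1 1416881_at (-0.80, adjusted p = 0.0094). Comparisons against the memory ex vivo, medium or IL-7 arrays share those arrays with one another.

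**Figure D3:**
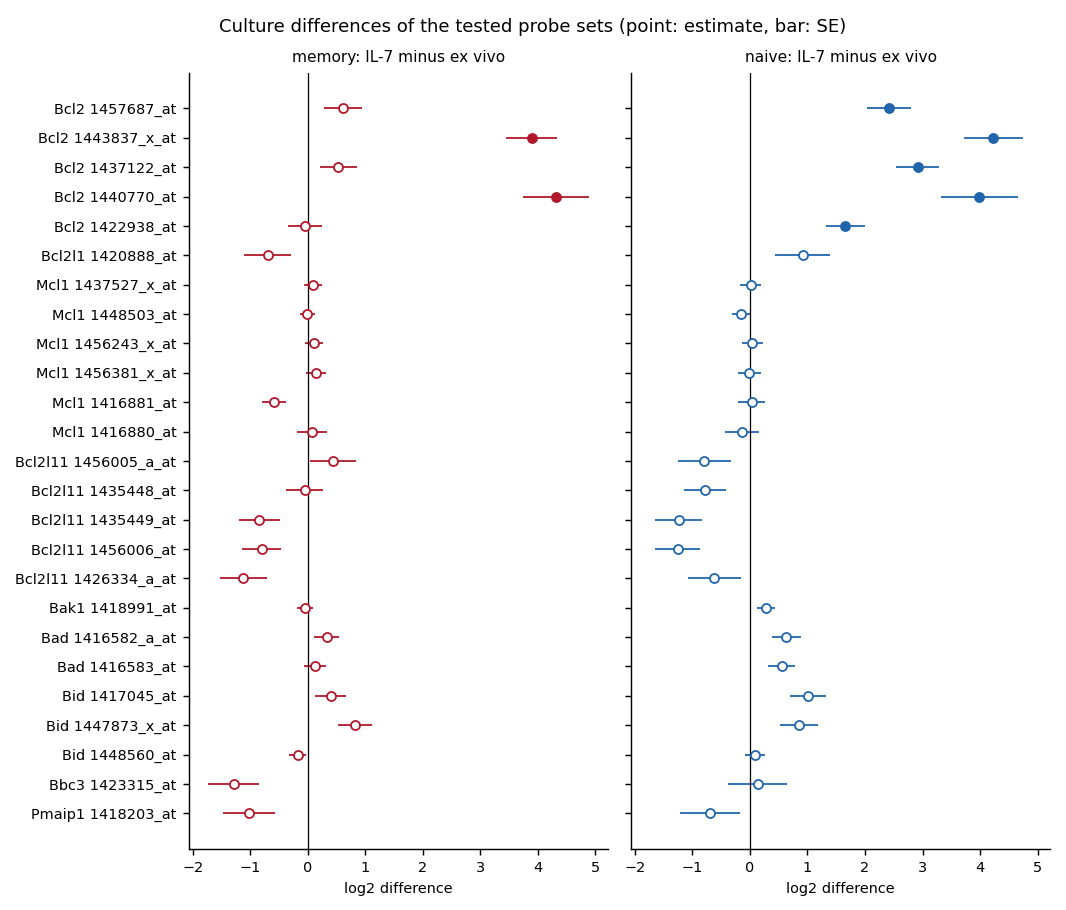
Log2 differences of cells cultured with IL-7 against cells ex vivo, for the 25 tested probe sets, in memory cells (left) and naive cells (right). Bars are standard errors and filled points passed an adjusted p under 0.05, which were 2 Bcl2 probe sets in memory cells and 5 in naive cells.

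Mcl1, a guardian with a short-lived protein that T cells need at rest, gave high values on every array and moved little. Its 6 probe sets ran from 10.20 to 13.74 (log2) over the 18 arrays. The brightest, 1437527_x_at, had 13.47 and 13.29 in memory cells with both cytokines, 13.41 and 13.44 with IL-4, 13.15 and 13.08 with IL-7, and 13.06 and 12.83 in medium. The arrays with IL-4 lay above those without it, by 0.27 with IL-7 (limma adjusted p = 0.529) and 0.48 without (adjusted p = 0.268). In all 3 IL-4 comparisons all 6 Mcl1 probe sets had positive differences, between 0.07 and 0.72, and none passed. The averaged IL-4 call of 1416881_at given above was lost in 18 of 25 alternatives, among them leaving out medium array 1 (0.39, adjusted p = 0.0532). That probe set had 11.32 and 11.28 with both cytokines and 11.60 and 11.55 with IL-4, against 10.62 and 10.74 with IL-7, and 10.47 and 11.41 in medium. Medium array 2 lay among the arrays with IL-4, and without it the averaged difference was 0.86 (adjusted p = 0.00104).

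Bcl2l1 encodes BCL-XL, a guardian also known to be high in red cell precursors. Its single tested probe set, 1420888_at, had 8.31 and 8.78 in memory cells with both cytokines, 8.31 and 8.28 with IL-4, 8.18 and 7.99 with IL-7, 7.94 and 9.06 in medium, and 8.78, 9.07, 8.60 and 8.69 ex vivo. In naive cells it had 8.07 and 9.76 with both cytokines, 8.18 and 9.30 with IL-7, and 7.77 and 7.88 ex vivo. The highest 2 values were thus array 2 of each cultured naive group, more than 1 unit above array 1. Ex vivo, memory cells were 1.95-fold above naive cells with no overlap (0.96, SE 0.41, limma adjusted p = 0.287). Alas2 lay at 7.98 to 11.50 on those memory arrays and 5.54 to 6.15 on those naive arrays, and at 4.15 to 5.38 on the 4 cultured naive arrays. Its part in the ex vivo difference was not tested.

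Bak1, an effector that forms the pore, gave low values near the filter. Probe set 1418991_at had 5.33 and 5.13 in memory cells with both cytokines, 4.78 and 4.73 with IL-4, 4.49 and 4.30 with IL-7, 4.47 and 4.59 in medium, and 4.42, 4.59, 4.49 and 4.27 ex vivo. In naive cells it had 4.54 and 4.78 with both cytokines, 4.67 and 4.75 with IL-7, and 4.49 and 4.36 ex vivo. The 2 arrays of memory cells with both cytokines were the highest of the 18. The call in memory cells with IL-7 was lost when any 1 of its 4 arrays was left out (adjusted p = 0.0632 to 0.162) and when those 4 alone were fitted (adjusted p = 0.0813). Without IL-7 the IL-4 difference was 0.23 (limma adjusted p = 0.583), and in naive cells -0.05 (95% interval -0.39 to 0.29). Memory cells exceeded naive cells in both cytokines by 0.57 (adjusted p = 0.0709). The other Bak1 probe set, 1425716_s_at, ran from 3.11 to 3.89 and was not tested.

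**Figure D4:**
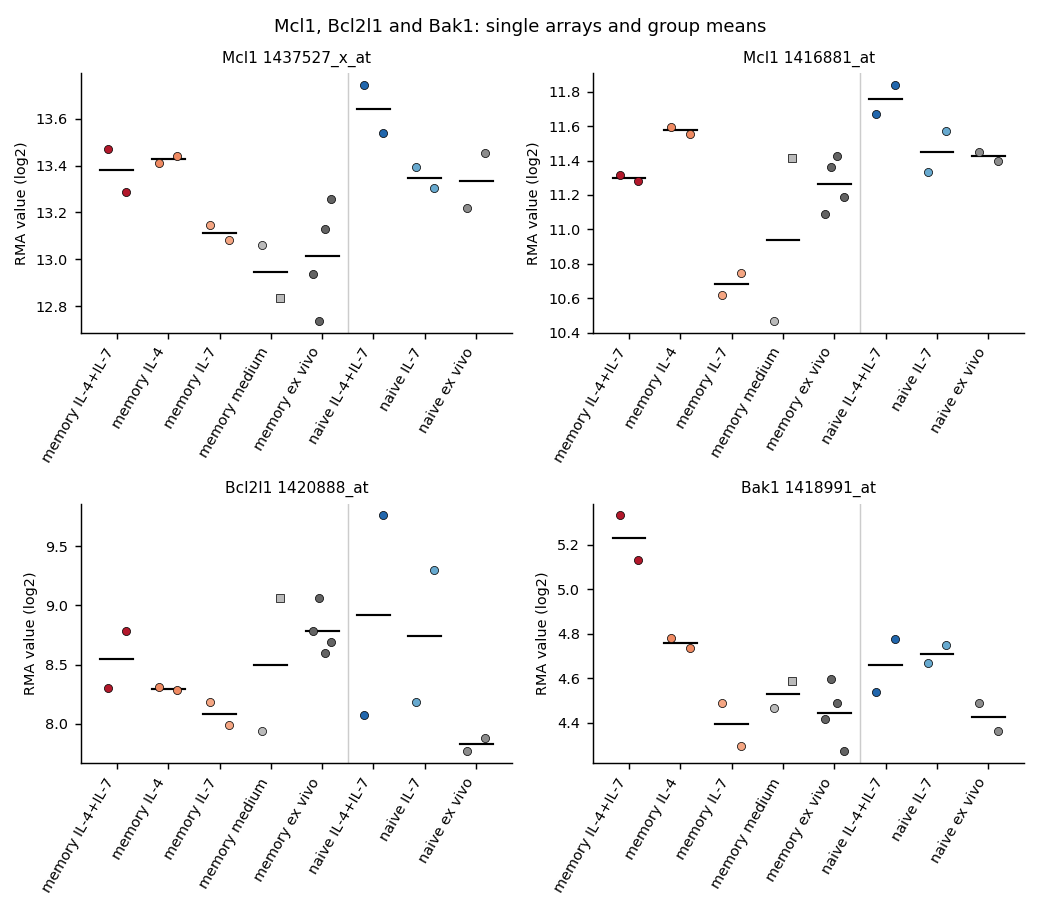
RMA values (log2) of 2 Mcl1 probe sets, Bcl2l1 and Bak1 on each array, by group, with a separate scale in each panel. Points are single arrays, black lines group means, and the square is the medium array that resembled an ex vivo array. The 2 arrays of memory cells with both cytokines are the highest for Bak1, and array 2 of each cultured naive group is the highest for Bcl2l1.

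Bcl2l11 encodes BIM, the BH3-only protein best known for ending T cell responses when cytokines are withdrawn. Its 5 probe sets differed in level and in pattern. The brightest, 1456005_a_at, had 11.37 and 10.33 in memory cells with both cytokines, 11.12 and 11.53 with IL-4, 11.21 and 11.43 with IL-7, 11.32 and 11.44 in medium, and 10.08, 10.91, 11.53 and 11.00 ex vivo. In naive cells it had 12.32 and 11.00 with both cytokines, 11.42 and 10.86 with IL-7, and 12.01 and 11.86 ex vivo. Ex vivo memory arrays all lay below the naive ones (-1.06, SE 0.40, limma adjusted p = 0.233), and likewise for 1435448_at (-0.87, SE 0.32, adjusted p = 0.219).

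In naive cells, all 5 Bcl2l11 probe sets had lower means with IL-7 than ex vivo, with differences between -1.26 and -0.62. The nearest to the threshold were 1456006_at, with 6.85 and 6.81 in IL-7 and 7.66 and 8.51 ex vivo (-1.26, SE 0.39, limma adjusted p = 0.0603), and 1435449_at (-1.24, SE 0.41, adjusted p = 0.0725). Both passed without medium array 2 (adjusted p = 0.0212 and 0.0344) and without medium array 1 (adjusted p = 0.0212 and 0.0344). In memory cells the same comparison gave -0.80 and -0.84 (adjusted p = 0.116 and 0.112), with -1.12 for the dimmest probe set, 1426334_a_at (adjusted p = 0.0667). The 2 brightest differed by 0.44 (1456005_a_at) and -0.05 (1435448_at). Memory ex vivo array 1 was low for 1456006_at and 1435449_at, and without it the memory differences were -1.05 (adjusted p = 0.0344) and -1.08 (adjusted p = 0.043). Probe set 1426334_a_at had 4.98 and 5.55 with both cytokines, 4.96 and 5.25 with IL-4, 3.99 and 4.09 with IL-7, and 4.51 and 6.17 in medium. Both IL-7 arrays were at the filter value, and the IL-4 difference with IL-7 was 1.22 (SE 0.47, adjusted p = 0.235).

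Pmaip1 encodes NOXA, the BH3-only protein that targets MCL1, and Bbc3 encodes PUMA. Pmaip1 had 7.73 and 8.28 in memory cells with both cytokines, 8.49 and 7.81 with IL-4, 8.90 and 9.09 with IL-7, 8.84 and 9.96 in medium, and 10.16, 9.94, 9.93 and 10.06 ex vivo. In naive cells it had 6.07 and 8.15 with both cytokines, 7.34 and 8.08 with IL-7, and 8.59 and 8.20 ex vivo. The 4 memory ex vivo arrays and medium array 2 were the highest of all, and the memory arrays with IL-4 lay below all those without it. Averaged over both settings IL-4 differed by -1.12 (SE 0.37, limma adjusted p = 0.102), which passed without medium array 1 (-1.40, adjusted p = 0.0278) or without either naive array in both cytokines (adjusted p = 0.0187). Without medium array 2 the averaged difference was -0.84 (adjusted p = 0.261) and that without IL-7 was -0.70. The naive arrays in both cytokines, 2.08 apart on the log2 scale, enter the result through the shared estimate of spread.

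Ex vivo, Pmaip1 was 3.08-fold higher in memory than in naive cells with no overlap (1.62, SE 0.45, limma adjusted p = 0.116). It passed without either naive array in both cytokines (adjusted p = 0.0177) and when only the ex vivo arrays were fitted (adjusted p = 0.00262). Cultured with IL-7, memory cells were 2.44-fold higher than naive cells (1.28, adjusted p = 0.285). Bbc3 had 6.66 and 7.02 in memory cells with both cytokines, 6.17 and 6.07 with IL-4, 6.53 and 7.04 with IL-7, 6.59 and 7.79 in medium, and 7.45, 7.80, 8.92 and 8.13 ex vivo. The 2 memory arrays with IL-4 alone were the lowest of the 18, and the memory IL-7 arrays lay below the ex vivo arrays (-1.29, SE 0.44, adjusted p = 0.0577). In naive cells the Bbc3 difference of that kind was 0.14 (adjusted p = 0.914), and the difference between the memory and naive culture responses was -1.43 (95% interval -2.89 to 0.03, adjusted p = 0.467).

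Bid links death receptors to the mitochondrion, and Bad is a BH3-only protein held inactive by survival kinases. Bid 1417045_at had 8.18 and 7.91 in naive cells with both cytokines, 8.04 and 7.91 with IL-7, and 7.15 and 6.77 ex vivo. Cultured naive arrays lay above the ex vivo ones, by 1.02 with IL-7 (SE 0.31, limma adjusted p = 0.0557), and this passed without medium array 1 or 2 (adjusted p = 0.01 in each case) and without memory ex vivo array 2 (adjusted p = 0.0457). In memory cells with IL-4 it had 7.90 and 7.60, against 7.46 and 6.36 in medium (0.84, adjusted p = 0.257), and without medium array 2 the difference was 0.30 (adjusted p = 0.994). Bad 1416582_a_at ran from 7.56 to 8.79 and 1416583_at from 5.75 to 6.84, and their differences in the 3 separate IL-4 comparisons lay between -0.50 and 0.53, none passing.

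**Figure D5:**
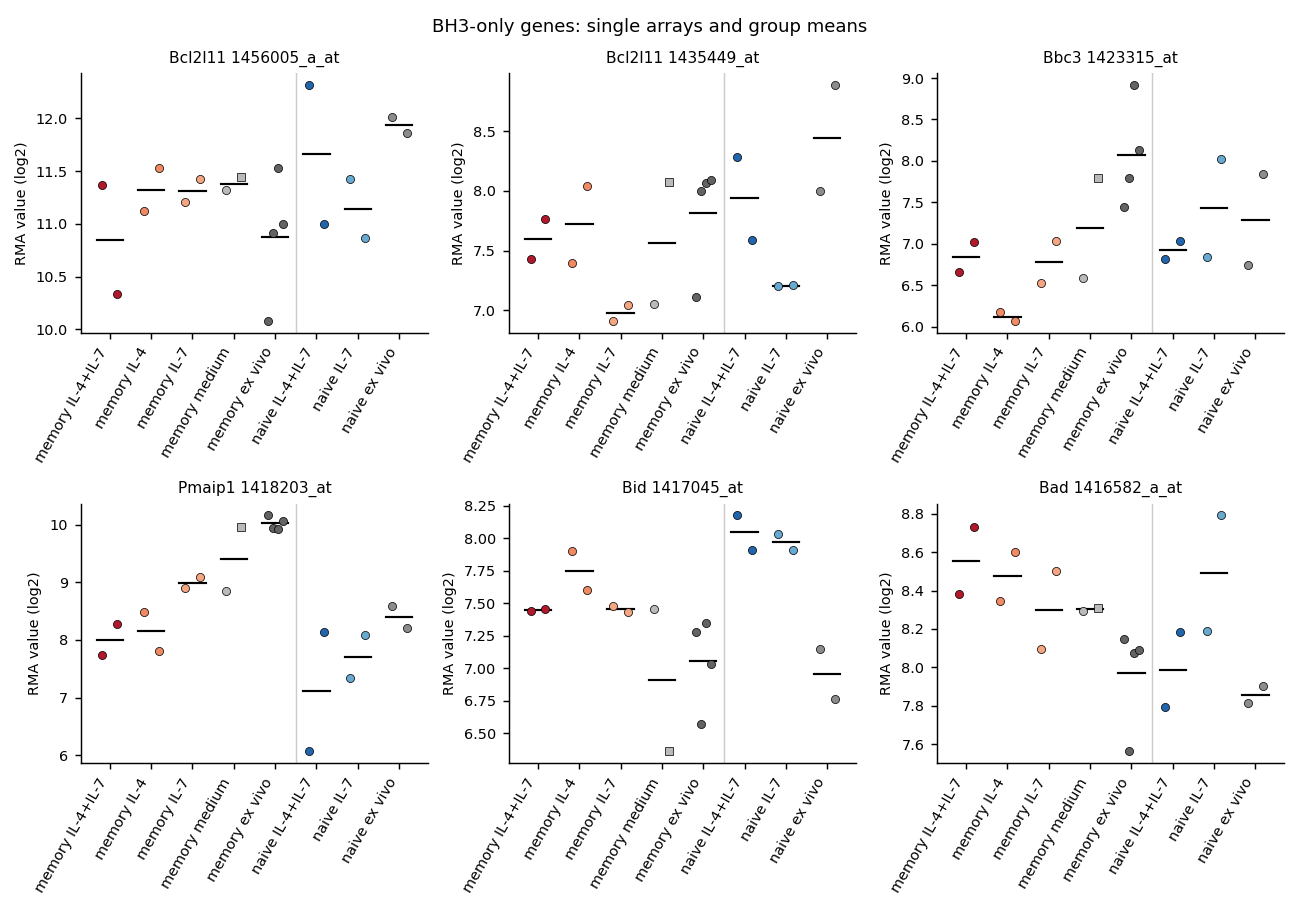
RMA values (log2) of BH3-only genes on each array, by group, with a separate scale in each panel. Points are single arrays, black lines group means, and the square is the medium array that resembled an ex vivo array. Pmaip1 is highest in memory cells ex vivo, and Bid is higher in cultured than in ex vivo naive cells.

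Between memory and naive cells, 0 of 25 member probe sets passed by limma in any of the 3 settings. Of all probe sets 1.24% were called ex vivo, 2.14% with IL-7 and 2.50% with both cytokines. An unadjusted p under 0.05 was seen for 8 members ex vivo (32%, against 15.6% of all), 6 with IL-7 (24%, against 13.5%) and 3 with both cytokines (12%, against 20.2%). With IL-7, 4 of 25 differences were above 0. With IL-7 the differences nearest the threshold were Bcl2 1422938_at, lower in memory cells by 2.53-fold (-1.34, adjusted p = 0.0673), Bcl2 1437122_at (-1.37, adjusted p = 0.0808) and Mcl1 1416881_at (-0.77, adjusted p = 0.133). Without medium array 2 the first and the last passed (adjusted p = 0.0268 and 0.0167). With both cytokines those 2 Bcl2 probe sets differed by 0.21 and 0.44. Ex vivo, Bcl2 1437122_at was 2.02-fold higher in memory cells (1.01, adjusted p = 0.158) and 1457687_at 1.81-fold higher (0.86, adjusted p = 0.235). None of these passed, and neither did the direct test of the change between ex vivo and IL-7 given above (adjusted p = 0.118 for 1437122_at). Mean levels of the B cell markers were 5.29 to 6.15 on memory arrays and 4.90 to 5.22 on naive arrays, and of the 2 red cell precursor genes 5.20 to 7.44 and 3.78 to 4.70. Their part in these differences was not tested.

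Other genes of the pathway were counted at 1 probe set per gene. Of 17 further BCL2 family genes listed, 11 were tested, and 0 passed in any of the 3 separate IL-4 comparisons. Averaged over both settings Bik, a BH3-only gene, was 2.25-fold higher with IL-4 in memory cells (1.17, SE 0.24, limma adjusted p = 0.0128), and 1.03 without medium array 2 (adjusted p = 0.038). Bik had 6.84 and 7.79 in memory cells with both cytokines, against 4.49 and 5.15 in naive cells with both (2.49, SE 0.34, limma adjusted p = 0.00199). It was the only 1 of the 11 called in these 2 comparisons. Of genes at 1 probe set each, 5.79% were called for IL-4 averaged and 3.81% for memory against naive cells with both. In memory cells cultured with IL-7 against ex vivo, where 19.9% of 13780 genes were called at 1 probe set each, 3 of the 11 rose (Bcl2l2, Bnip2 and Bnip3, by 0.79 to 1.21) and 2 fell, Bcl2l13 by 0.89 and Bcl2l14 by 0.49. In naive cells, where 1764 of 13780 genes were called, 1 rose, Bcl2l12 (0.99, adjusted p = 0.014).

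Of 18 listed genes of mitochondrial apoptosis and death receptor signalling, 16 were tested. With IL-4 in memory cells, 2 of the 16 passed with IL-7, 1 without IL-7 and 3 averaged. Of genes at 1 probe set each, 1.81%, 1.94% and 5.79% were called in the same order. Casp6, an executioner caspase, rose with IL-4 in memory cells, both when IL-7 was present (1.23, SE 0.27, limma adjusted p = 0.0414) and when it was not (1.45, SE 0.27, adjusted p = 0.0192). It had 10.16 and 10.25 with both cytokines and 10.12 and 10.09 with IL-4, against 8.90 and 9.06 with IL-7 and 9.15 and 8.16 in medium. Without medium array 2 the difference without IL-7 was 0.95 (adjusted p = 0.126), and the averaged difference 1.09 (adjusted p = 0.00116). The call with IL-7 was lost in 13 of 26 alternatives, among them leaving out any 1 of its 4 arrays (adjusted p = 0.0792 to 0.298). Birc3, an inhibitor of apoptosis of the IAP family, rose with IL-4 in memory cells kept with IL-7 (0.89, SE 0.21, adjusted p = 0.0462), a call lost in 16 of 26. Its averaged difference was 0.62 (adjusted p = 0.0239) and lay between 0.52 and 0.72 over the alternatives. In naive cells Birc3 had 11.42 and 11.26 with both cytokines, against 10.19 and 10.55 with IL-7. Casp6 had 9.67 and 10.16 in naive cells with both, against 9.10 and 9.23 with IL-7. Neither gene passed in naive cells. Fadd, an adaptor of death receptors, passed in the averaged comparison (0.66, adjusted p = 0.0488), and this was lost in 23 of 26, among them leaving out medium array 2 (0.43, adjusted p = 0.129). In cultured against ex vivo memory cells 5 of the 16 rose and 2 fell, against the 19.9% of genes called. The 5 were Aifm1, Fadd, Htra2, Casp9, the caspase activated at the apoptosome (1.81, adjusted p = 0.0217), and Xiap (1.19, adjusted p = 0.0359), while Birc2 fell by 0.87 and Birc3 by 0.77. In naive cells Fadd (1.42, adjusted p = 0.0068) and Htra2 (0.96, adjusted p = 0.0324) rose and Birc2 fell by 1.11. The medians of the 16 in these 2 culture comparisons were 0.32 and 0.30, against -0.04 and 0.03 over all probe sets. With both cytokines, Endog was higher in memory than in naive cells (1.05, SE 0.23, adjusted p = 0.0326), where 3.81% of genes were called. That call was lost in 6 of 26 alternatives.

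Of 14 known regulators of the members, 13 were tested. With IL-4 averaged over both settings, Fbxw7, part of a ligase that marks MCL1 for degradation, fell by 0.61 in memory cells (SE 0.15, limma adjusted p = 0.0296), and by 0.66 without medium array 2 (adjusted p = 0.0402). The other 12 did not pass, and 5.79% of 13780 genes were called there at 1 probe set each. In memory cells cultured with IL-7, Stat5a fell by 1.91 against ex vivo cells (SE 0.52, limma adjusted p = 0.0229). It was the only 1 of the 13 called there, against 19.9% of genes. Stat5a had 7.98 and 7.99 in IL-7 and 9.52 to 10.18 ex vivo. In medium it had 8.03 on array 1 and 9.99 on array 2.

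The genes whose 8 group means ran most like those of a member were ranked by Pearson's r over 13779 genes, as a description of 8 points. For Bcl2 1457687_at they were Nipa1 (r = 0.9949), 5830468F06Rik (r = 0.9846) and Slc31a2 (r = 0.9825). For Mcl1 1437527_x_at they were Nup210 (r = 0.9822), Extl2 (r = 0.981) and Ankfy1 (r = 0.9727). For Bcl2l11 1456005_a_at they were Myef2 (r = 0.9247), Map3k2 (r = 0.9158) and Rnf146 (r = 0.9044).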

How the data were processed

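The authors deposited 1 log2 value per probe set and array. RMA and limma are the tools listed in the submitters' processing notes, their versions not given in the sources used here, and the values have the scale of RMA output. Per the labels' protocols, RNA was amplified and labelled with biotin. There were 45101 probe sets, including 64 array controls. Genes were named from the platform annotation: 34945 of the other probe sets had 1 symbol, 932 several and 9160 none.

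Each comparison was a contrast of group means in 1 linear model over all 18 arrays (limma 3.58.1, R 4.3.3, lmFit and eBayes, residual degrees of freedom 10, prior 3.77), two-sided, per probe set, with Benjamini-Hochberg adjustment over the 29843 probe sets above the 40th percentile on at least 2 arrays. Called means an adjusted p under 0.05. The procedure was tested on simulated data. Groups were taken from the labels. Replicates were not shown to be separate animals, so p-values reflect only the spread among the arrays at hand, whose number limits the precision. Alternatives were no filter, a filter at the 60th percentile, 1 probe set per gene, only the groups compared, an intensity trend, array weights, a replicate block and leaving out each array.

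The members and gene lists were chosen with earlier results of these data known. Named probe sets were all those of Bcl2, the brightest of each other member, those past or nearest the threshold, and in the lists those called. The pairing of Bcl2 probe sets was chosen after its values were seen. At most 34 probe sets had equal values in any pair of arrays. RefSeq supplied promoters, searched for the words given in the text.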

Additional observations from a re-analysis of the deposited data

Results flagged for a closer look

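In the 4 memory ex vivo arrays, the gap between an end value and its nearest neighbour was set against the range of the group. Of 29 member probe sets, 3 had an array standing far from the other 3, and chance alone gives about 1 in 20. Bad 1416582_a_at was 7.56 on array 2, where the nearest other array had 8.07 and the highest 8.15. Bcl2l11 1435449_at was 7.11 on array 1, where the nearest other array had 8.003 and the highest 8.09. Bcl2l11 1456006_at was 6.75 on array 1, where the others had 7.64 to 7.82. The last 2 probe sets belong to 1 gene and are not independent.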

How the results depend on the processing

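Over the 18 calls of single member probe sets and 453 alternatives run on them, 407 kept the call, 46 lost it and 0 reversed direction. Many of the alternatives left out an array that the comparison did not use. These totals therefore say little about how far a call rests on the arrays compared. Member probe sets past the threshold, the count in the report being given last, varied as follows. For IL-4 on memory cells kept with IL-7 there were 1 with the filter at the 60th percentile, 1 at 1 probe set per gene, 0 with only the groups compared, 5 with array weights, and 2 as reported. For IL-4 without IL-7 there were 1 at 1 probe set per gene, 0 with only the groups compared, 1 with array weights, and 3 as reported. Averaged over both there were 2 at 1 probe set per gene, 1 with only the groups compared, and 6 as reported. For memory against naive cells ex vivo there were 2 with only the groups compared, 1 with array weights and 1 with the replicate block, and with IL-7 there were 4, 4 and 1 in the same order, against 0 as reported in each. For culture with IL-7 there were 0 (memory) and 2 (naive) at 1 probe set per gene and 8 and 8 with only the groups compared. There were 9 and 8 with array weights, and 2 and 5 as reported. Over all 29843 probe sets, 8024 and 4562 were called with only the groups compared and 10392 and 5811 with array weights. As reported, 5646 and 2806 were called, so the counts over all rose as well. The difference of those culture responses had 1 with only the groups compared, 1 with array weights, and 0 as reported. At 1 probe set per gene fewer member probe sets were tested. With the replicate block, memory ex vivo arrays 3 and 4 carried no weight in group differences. Otherwise the cause was not tested.

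Leaving out 1 array at a time gave 0 to 2 calls for IL-4 with IL-7, 1 to 5 without IL-7, 4 to 8 averaged, 0 to 5 for IL-7 without IL-4, 0 to 4 for the IL-4 response with minus without IL-7, 0 to 1 for memory against naive ex vivo, 0 to 2 with IL-7, 0 to 2 with both cytokines, 0 to 2 for culture in medium, 2 to 5 for culture of memory and 3 to 8 of naive cells in IL-7. A group left with 1 array was assumed to vary like the others.

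Over all probe sets, leaving out 1 array gave 115 to 906 calls for IL-4 with IL-7, 91 to 4376 without, 58 to 1000 in naive cells, 276 to 7431 for culture of memory cells and 144 to 4893 of naive cells. Those counts also moved by more than 1.5 times in several fits. With only the groups compared, IL-4 without IL-7 had 0 against 343 as reported, IL-4 in naive cells 6 against 203, IL-4 averaged 552 against 1574, memory against naive 2461 against 638 with IL-7 and 7 against 746 with both cytokines, culture of naive cells 4562 against 2806, the memory minus naive IL-4 response 2 against 8 and the culture response 347 against 7. With array weights the counts were 1656 for IL-4 with IL-7 (477 as reported), 113 for IL-4 without IL-7, 751 for memory against naive ex vivo (371), 2721 with IL-7, 234 with both, 10392 for culture of memory cells (5646), 5811 of naive cells and 493 for the culture response. At 1 probe set per gene, of 13780 tested, they were 249, 798 (IL-4 averaged), 372 (memory against naive with IL-7), 2744 and 1764 (culture of memory and naive cells). With the filter at the 60th percentile the culture response had 4.

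The cultured groups share replicate numbers, but no label says that a number marks a shared population. Deviations from the group means correlated at 0.273 to 0.468 between the 3 memory groups with cytokine and 0.454 between the cultured naive groups. They correlated at -0.0458 to 0.0272 between medium and those memory groups. Between those memory groups and the cultured naive groups, r was 0.344 where both had both cytokines, and otherwise -0.0568 to 0.12. Alas2 was 9.89 to 10.09 on array 1 and 6.84 to 7.15 on array 2 of the 3 memory groups with cytokine. With the replicate number as a block, IL-4 with IL-7 had 2 member calls, IL-4 without IL-7 had 4 (Bcl2 1440770_at being added, adjusted p = 0.0136), averaged 6, culture of memory cells 2 and of naive cells 6. Over all probe sets, the block gave 3237 calls for culture of memory cells and 2 for the memory minus naive IL-4 response. The block gave memory, naive and ex vivo arrays of the same number a shared effect. It therefore does not model the memory and naive populations separately. Memory ex vivo arrays 3 and 4 were alone in their numbers and carried no weight in its group differences.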
